A study of Mus musculus with 35 samples.

Results

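T and NK cell genes are described here in whole lung of adult male CD-1 mice that breathed styrene vapour or clean air. The list was set by name and holds 10 genes: Cd3d, Cd3e, Cd3g, Cd8a, Cd4 and Lck of T cells, and Gzma, Prf1, Nkg7 and Ncr1 of cytotoxic T cells and natural killer (NK) cells. A gene was taken as measured where the platform annotation gave at least 1 probe set that exact symbol and no other. This held for 9 of the 10 genes, with 13 probe sets in all, out of 17097 genes on the array that could be named in this way. The annotation used here names no probe set for Lck, the kinase that starts T cell receptor signalling, and it was skipped. Where a gene had several probe sets, the brightest over all 35 arrays stands for it.

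The mice, an outbred stock from Taconic, inhaled air alone or 1, 5, 10, 20, 40 or 120 ppm styrene while caged singly, and were killed the morning after exposure ended. Each of the 7 groups held 5 mice, each labelled as a biological replicate, and each mouse gave 1 Affymetrix 3' array. The labels give both a single 6-hour exposure and a 5-day exposure, and no choice between them is made here. All values are log2 probe set signals, so a difference of 1 is a doubling, and levels of different probe sets cannot be set against each other.

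T cells recognise antigen through a receptor that is carried to the cell surface with the CD3 chains gamma, delta and epsilon, which pass the signal on. CD4 and CD8 are co-receptors that divide T cells into helper and cytotoxic classes. Cytotoxic T cells and NK cells kill by releasing granules that hold perforin, which opens the target membrane, and granzymes, proteases that enter the target. The lung holds both cell types in its vessels, walls and airways. In RNA of whole tissue, fewer cells of a type and less RNA per cell cannot be told apart.

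The promoters of the genes whose levels moved most are shown first, because the CD3 genes lie side by side and yet differed in direction, and so did the granule genes. Sequences are from RefSeq on the GRCm38.p6 build, the 250 bases just before the annotated transcript start, 5′ to 3′ on the gene's own strand. Of the 10 listed genes, 9 had such a window. The windows of Cd3d, Cd3e and Prf1 reach into the gene spans given below, as the start used here lies inside the span. Cd3g (chr9:44980432-44980681, minus strand) and Cd3d (chr9:44981536-44981785, plus strand) point away from each other, with starts 1355 bases apart. The Cd3e window (chr9:45009612-45009861, minus strand) belongs to a start 27825 bases from that of Cd3d. Capitals mark any of 4 motifs on either strand: the RUNX core TGTGGT, the ETS core AGGAAG, the T-box element TCACAC and the E-box CAGGTG.
Cd3d: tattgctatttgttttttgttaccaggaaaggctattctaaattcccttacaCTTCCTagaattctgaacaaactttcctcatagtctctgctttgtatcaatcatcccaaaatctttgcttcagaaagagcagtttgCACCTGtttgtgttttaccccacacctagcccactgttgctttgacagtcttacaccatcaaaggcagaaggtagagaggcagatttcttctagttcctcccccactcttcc
Cd3g: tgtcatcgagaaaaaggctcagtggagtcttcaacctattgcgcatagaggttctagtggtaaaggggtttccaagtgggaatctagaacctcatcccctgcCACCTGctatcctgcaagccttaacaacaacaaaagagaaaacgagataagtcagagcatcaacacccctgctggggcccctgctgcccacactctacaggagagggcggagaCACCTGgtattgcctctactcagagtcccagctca
Cd3e: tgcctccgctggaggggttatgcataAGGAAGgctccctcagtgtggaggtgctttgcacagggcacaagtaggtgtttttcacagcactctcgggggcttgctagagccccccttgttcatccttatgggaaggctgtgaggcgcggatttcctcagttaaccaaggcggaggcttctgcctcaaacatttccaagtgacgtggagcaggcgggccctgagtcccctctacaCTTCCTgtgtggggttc
The RUNX core was in 0 of these 3 windows, and the E-box was in those of Cd3d and Cd3g and not in that of Cd3e. Over 32851 windows of this length, 14% held the RUNX core, 29.5% the ETS core, 12.3% the T-box element and 17.2% the E-box.

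The windows of the killer cell genes are Gzma (chr13:113100982-113101231, minus strand), Ncr1 (chr7:4337465-4337714, plus strand), Nkg7 (chr7:43436888-43437137, plus strand) and Prf1 (chr10:61297586-61297835, plus strand).
Gzma: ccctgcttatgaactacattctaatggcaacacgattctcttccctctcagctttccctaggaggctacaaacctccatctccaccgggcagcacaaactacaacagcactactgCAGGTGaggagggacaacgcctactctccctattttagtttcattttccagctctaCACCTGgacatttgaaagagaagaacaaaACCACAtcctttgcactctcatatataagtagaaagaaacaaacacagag
Ncr1: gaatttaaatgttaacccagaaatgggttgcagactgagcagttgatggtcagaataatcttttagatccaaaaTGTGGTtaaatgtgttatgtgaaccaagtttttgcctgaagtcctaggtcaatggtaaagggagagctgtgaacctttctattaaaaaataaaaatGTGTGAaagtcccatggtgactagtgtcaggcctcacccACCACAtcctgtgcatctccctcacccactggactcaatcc
Nkg7: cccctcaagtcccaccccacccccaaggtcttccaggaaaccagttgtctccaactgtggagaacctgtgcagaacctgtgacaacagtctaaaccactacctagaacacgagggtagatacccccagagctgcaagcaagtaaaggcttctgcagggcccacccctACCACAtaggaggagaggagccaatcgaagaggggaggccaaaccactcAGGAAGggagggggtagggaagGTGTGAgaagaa
Prf1: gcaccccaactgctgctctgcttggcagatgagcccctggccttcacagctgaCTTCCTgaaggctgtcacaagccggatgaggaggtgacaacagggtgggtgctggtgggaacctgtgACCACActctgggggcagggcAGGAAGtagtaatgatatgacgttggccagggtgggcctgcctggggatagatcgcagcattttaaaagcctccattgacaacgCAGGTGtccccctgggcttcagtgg
All 4 of these windows held the RUNX core, which Ncr1 held at 2 places. The T-box element was in Ncr1 and Nkg7, and the E-box in Gzma and Prf1. These matches are letters in a window and were not tested as sites. The windows of genes that were higher after styrene and of genes that were lower shared motifs, as Gzma and Nkg7 below show.

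The arrays fell into 2 sets that follow the concentration, which bears on every comparison with air. The spread of values on an array, taken as the interquartile range, was 3.28 to 3.54 log2 in the 25 arrays of 5 to 120 ppm and 2.66 to 3.16 in the 10 arrays of air and 1 ppm. The first principal component held 67.3% of the variance. Lung epithelial markers were bright, as the tissue label says, with surfactant protein Sftpc at 13.77 log2 at 120 ppm and 13.77 in air and a mean over 9 markers of 11.87 to 12.04 at 120 ppm and 11.74 to 11.87 in air. That mean was higher in each array of 5 to 120 ppm than in any air array (lowest 11.8739 against highest 11.8716). The 1 ppm arrays ran 11.63 to 11.94 and overlapped those of 5 to 120 ppm. From 5 ppm upwards most genes on the array were called against air, and the main counts of members are given beside that share. The labels name no batch, and an effect of exposure and an array-wide difference between the 2 sets cannot be told apart. A gene was called at an adjusted p under 0.05 in limma's moderated test, with Benjamini-Hochberg adjustment over all 17097 genes.

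From 5 ppm upwards the genes of the same receptor and of the same killing machinery moved in opposite directions relative to air. Cd3g, Gzma and Ncr1 were higher and Cd3e and Nkg7 lower in all 5 comparisons, whereas Cd4 was called in none. Cd3d was higher from 10 ppm upwards, Prf1 was lower at 5 ppm and from 20 ppm upwards, and Cd8a was higher at 120 ppm alone. At 1 ppm, 0 of the 9 genes were called with limma, against 2.46% of all genes. An unadjusted limma p under 0.05 was found for 1 of them, Cd3d, against 15.6% of all genes. Cd3d was also under 0.05 with the exact permutation test. At 5 ppm 6 of 9 were called, against 77.0% of all genes, 3 higher (29.6% of all genes) and 3 lower (47.4%). At 10 ppm 6 of 9 were called, against 66.4%, 4 higher (29.0%) and 2 lower (37.4%). At 20 ppm 7 of 9 were called, against 63.6%, 4 higher (29.4%) and 3 lower (34.2%). At 40 ppm 7 of 9 were called, against 64.8%, 4 higher (28.6%) and 3 lower (36.2%). At 120 ppm 8 of 9 were called, against 68.9%, 5 higher (29.8%) and 3 lower (39.1%). These counts are near the shares of all genes. Of the 5 members called in 1 direction in all 5 comparisons (53.9% of all genes), 3 were higher (24.6%) and 2 lower (29.3%). The mice of the exposed group did not overlap those in air in 5 of 9 members at 5 ppm (57.9% of all genes), 5 at 10 ppm (49.2%), 4 at 20 ppm (41.3%), 1 at 40 ppm (47.6%) and 1 at 120 ppm (50.7%). The median change of all genes was -0.23 log2 at 5 ppm and -0.15 at 120 ppm, and centring each array on its median moved the 5 ppm figure by -0.10.

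No called change turned its sign under quantile normalization or median centring, but the split of calls shifted. With quantile normalization the members called higher and lower were 3 and 3 at 5 ppm, 1 and 3 at 10 ppm, 3 and 3 at 20 ppm, 1 and 3 at 40 ppm and 2 and 3 at 120 ppm. Over all genes that setting called 26.1% to 28.1% higher and 31.3% to 40.9% lower in these 5 comparisons. With median centring they were 3 and 3 at 5 ppm, 3 and 3 at 10 ppm, 4 and 3 at 20 ppm, 2 and 3 at 40 ppm and 3 and 3 at 120 ppm, and over all genes 27.1% to 28.3% were called higher and 39.9% to 55.2% lower. The calls lost were of Cd3d, Cd3g, Cd8a, Gzma and Ncr1, all on the higher side. All comparisons with air share the same 5 air mice.

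**Figure D1:**
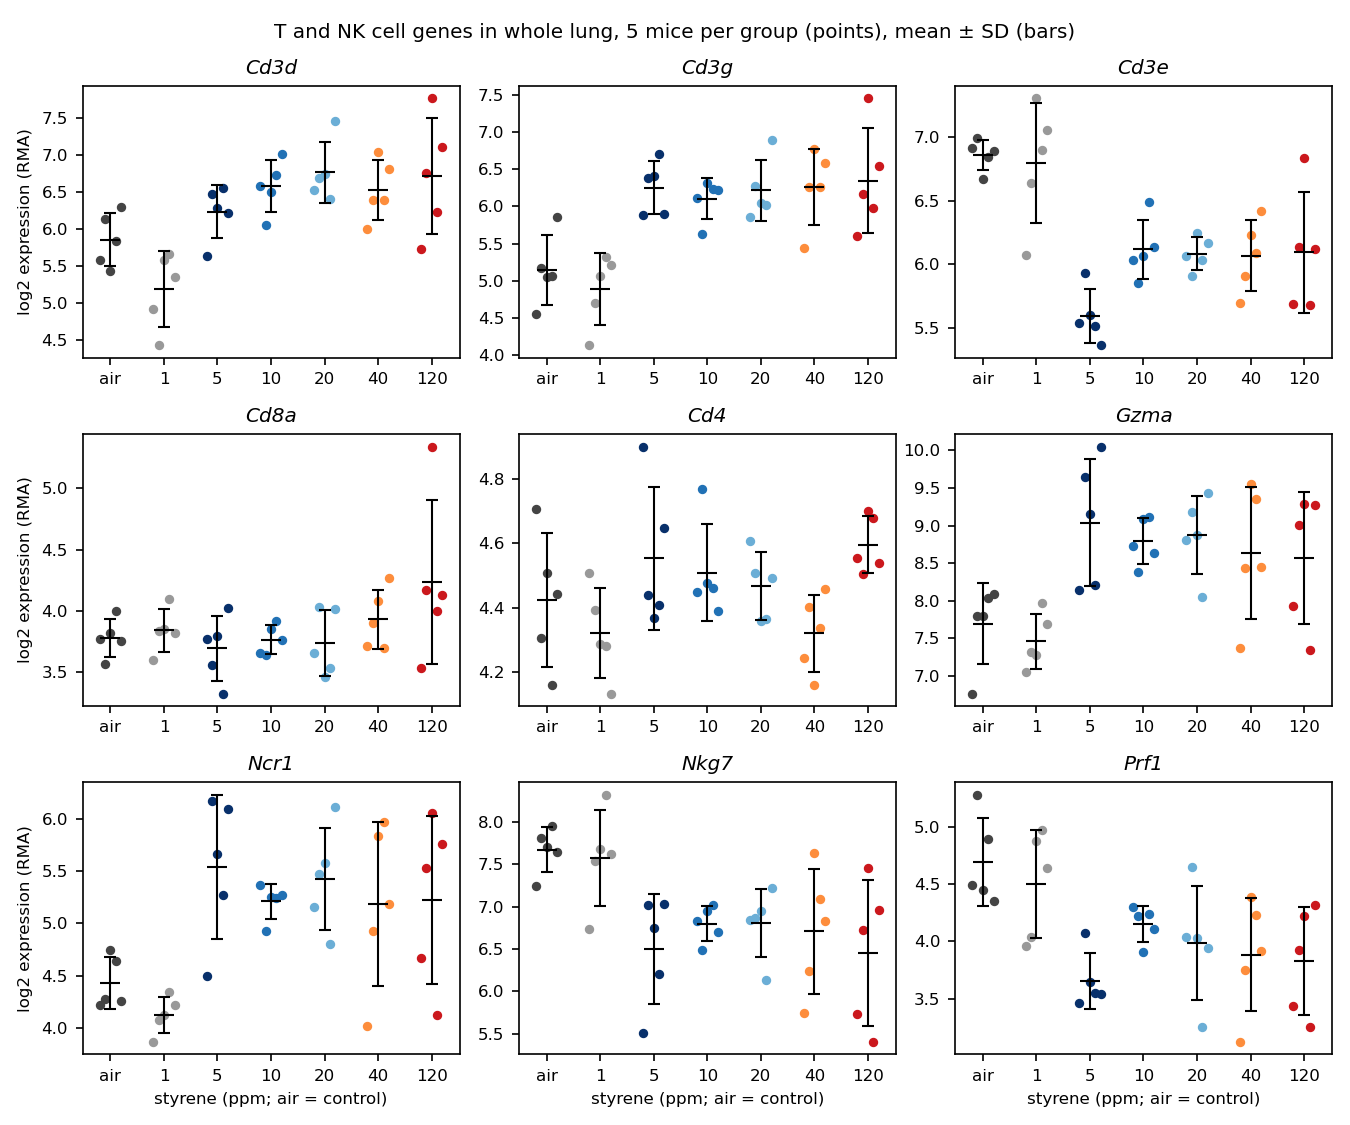
Log2 signal of the 9 measured genes in every mouse (points) and the mean of each group with its SD (bars), with groups in order from air to 120 ppm and 5 mice in each. Cd3g, Gzma and Ncr1 stand higher from 5 ppm upwards than in air, Cd3e and Nkg7 stand lower, and Cd4 averages 4.60 log2 at 120 ppm and 4.42 in air.

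The CD3 chains went in both directions. Cd3g, the gamma chain (gene at chr9:44969572-44980431), was 2.16-fold higher at 5 ppm and 2.31-fold higher at 120 ppm than in air. Cd3e, the epsilon chain (chr9:44998735-45009663), was 2.41-fold lower at 5 ppm and 1.70-fold lower at 120 ppm. Cd3d, the delta chain (chr9:44981769-44987052), was 1.81-fold higher at 120 ppm.

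For Cd3g the 5 air mice had 4.55, 5.17, 5.06, 5.06 and 5.86 log2, and the 5 mice at 1 ppm had 4.13, 4.69, 5.06, 5.32 and 5.22. The values were 5.88, 6.38, 6.41, 6.71 and 5.89 at 5 ppm, 6.11, 5.63, 6.31, 6.24 and 6.22 at 10 ppm and 5.86, 6.27, 6.04, 6.02 and 6.90 at 20 ppm. They were 5.44, 6.26, 6.77, 6.26 and 6.58 at 40 ppm and 5.60, 6.16, 7.45, 5.98 and 6.54 at 120 ppm. Every mouse at 5 ppm lay above every air mouse, and at 10 to 120 ppm the lowest mouse overlapped the highest air mouse. The log2 change relative to air was 1.11 ± 0.28 (SE; limma adjusted p = 0.000724) at 5 ppm, 0.96 at 10 ppm, 1.08 at 20 ppm, 1.12 at 40 ppm and 1.21 ± 0.28 (adjusted p = 0.000358) at 120 ppm. The group mean was 4.88 at 1 ppm and ran 6.10 to 6.35 from 5 to 120 ppm.

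Cd3e went the other way. Its air values were 6.91, 6.99, 6.67, 6.84 and 6.89 log2 and its 1 ppm values 6.07, 6.64, 7.31, 6.90 and 7.05. At 5 ppm they were 5.54, 5.93, 5.60, 5.52 and 5.36, at 10 ppm 6.03, 5.85, 6.07, 6.49 and 6.14 and at 20 ppm 6.07, 5.90, 6.25, 6.03 and 6.17. At 40 ppm they were 5.70, 5.91, 6.23, 6.09 and 6.42 and at 120 ppm 5.69, 6.14, 6.84, 5.68 and 6.12. No mouse at 5 to 40 ppm reached the lowest air mouse, and at 120 ppm only mouse 3 did. The log2 change was -1.27 ± 0.19 at 5 ppm (limma adjusted p = 2.35e-07), between -0.79 and -0.75 at 10, 20 and 40 ppm, and -0.77 ± 0.19 at 120 ppm (adjusted p = 0.000488). It was the one member whose 5 ppm level differed from the mean of 10, 20 and 40 ppm, where it was lower by -0.50 ± 0.15 log2 (limma adjusted p = 0.0079). In that comparison 1 of 9 members and 42.3% of all genes were called, 28.8% of all genes lower. Its difference takes no air array, but the limma spread is pooled over all 7 groups.

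Cd3d had 5.58, 6.14, 5.43, 5.84 and 6.29 log2 in air and 4.92, 4.43, 5.58, 5.65 and 5.34 at 1 ppm. It had 5.63, 6.47, 6.28, 6.56 and 6.21 at 5 ppm and 5.73, 6.76, 7.76, 6.23 and 7.11 at 120 ppm, and ran 6.06 to 7.01 at 10 ppm, 6.40 to 7.45 at 20 ppm and 5.99 to 7.03 at 40 ppm. The 20 ppm mice all lay above the air mice, and the other groups overlapped them. The log2 change relative to air was -0.67 ± 0.28 at 1 ppm (limma adjusted p = 0.229), 0.38 ± 0.28 at 5 ppm (adjusted p = 0.224) and 0.86 ± 0.28 at 120 ppm (adjusted p = 0.00834). Its calls were the least steady of the 3 chains. The 10 ppm call was lost without air mouse 1 or 3 or 10 ppm mouse 4 or 5 (0.61 to 0.68 log2), the 40 ppm call without air mouse 1, 3 or 4 or 40 ppm mouse 3 or 5 (0.54 to 0.66), and the 120 ppm call without 120 ppm mouse 3 (0.60, adjusted p = 0.0519). In order of mean level, neighbouring groups from 5 to 120 ppm differed by less than the larger of their SDs.

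The killer cell genes also went in both directions. Gzma, the protease granzyme A (chr13:113093824-113100981), was 2.54-fold higher at 5 ppm and 1.83-fold higher at 120 ppm than in air. Ncr1, the receptor NKp46 by which NK cells recognise targets (chr7:4337715-4345184), was 2.16-fold and 1.74-fold higher at these concentrations. Nkg7, a membrane protein of cytotoxic granules (chr7:43437138-43438246), was 2.24-fold lower at 5 ppm and 2.32-fold lower at 120 ppm. Prf1, perforin (chr10:61297751-61304684), was 2.05-fold and 1.82-fold lower by its brightest probe set.

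For Gzma the air mice had 6.77, 7.80, 7.79, 8.04 and 8.09 log2, and the 1 ppm mice had 7.05, 7.31, 7.29, 7.97 and 7.69. The values were 8.14, 9.65, 9.15, 8.21 and 10.05 at 5 ppm, 8.73, 8.39, 9.09, 9.12 and 8.64 at 10 ppm and 8.81, 9.18, 8.87, 8.05 and 9.44 at 20 ppm. They were 7.37, 8.44, 9.56, 9.36 and 8.45 at 40 ppm and 7.94, 9.003, 9.29, 7.35 and 9.28 at 120 ppm. All mice at 5 and 10 ppm lay above the highest air mouse, while 1 mouse at 20 ppm, 1 at 40 ppm and 2 at 120 ppm lay within or below the air values. The log2 change was 1.34 ± 0.39 at 5 ppm (limma adjusted p = 0.00262), 1.10 at 10 ppm, 1.18 at 20 ppm, 0.94 at 40 ppm and 0.88 ± 0.39 at 120 ppm (adjusted p = 0.0468). The 120 ppm call ended without air mouse 1, 2 or 3 or 120 ppm mouse 2, 3 or 5 (0.64 to 0.90 log2), the 40 ppm call without air mouse 1 or 40 ppm mouse 3 or 4 (0.71 to 0.76), and the 10 ppm call without air mouse 1 (0.86, adjusted p = 0.0622).

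Nkg7 ran against it. The air mice had 7.25, 7.80, 7.70, 7.95 and 7.65 log2 and the 1 ppm mice 6.73, 7.54, 7.67, 8.32 and 7.62. Mice at 5 ppm had 5.51, 7.02, 6.75, 6.21 and 7.03, at 10 ppm 6.83, 6.49, 6.95, 7.02 and 6.70 and at 20 ppm 6.85, 6.87, 6.95, 6.14 and 7.21. Mice at 40 ppm had 5.75, 6.24, 7.63, 7.09 and 6.83 and at 120 ppm 5.73, 6.72, 7.46, 5.41 and 6.96. At 5, 10 and 20 ppm every mouse lay below every air mouse, and mouse 3 of the 40 ppm and of the 120 ppm group reached the air range. The log2 change was -1.17 ± 0.34 at 5 ppm (limma adjusted p = 0.0026), -0.87 at both 10 and 20 ppm, -0.96 at 40 ppm and -1.21 ± 0.34 at 120 ppm (adjusted p = 0.00211). Leaving out 1 mouse took some calls over the threshold, with the change still below 0. The 10 ppm call was lost without air mouse 4 or 10 ppm mouse 2 (-0.80 to -0.79, limma adjusted p = 0.0543 to 0.0572). The 20 ppm call was lost without air mouse 4 or 20 ppm mouse 4 (-0.80 to -0.70, adjusted p = 0.0574 to 0.0887). The 40 ppm call was lost without 40 ppm mouse 1 (-0.72, adjusted p = 0.0662).

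Ncr1 had 4.22, 4.28, 4.75, 4.64 and 4.26 log2 in air, and ran 3.87 to 4.34 at 1 ppm. It had 4.49, 6.17, 5.67, 5.28 and 6.10 at 5 ppm and 4.67, 5.53, 6.05, 4.13 and 5.76 at 120 ppm, and ran 4.92 to 5.37 at 10 ppm, 4.80 to 6.11 at 20 ppm and 4.02 to 5.97 at 40 ppm. Mice at 10 and 20 ppm did not overlap those in air, and the widest spread was at 40 and 120 ppm, where the lowest mouse was below all air mice. The log2 change was 1.11 ± 0.32 at 5 ppm (limma adjusted p = 0.00275) and 0.80 ± 0.32 at 120 ppm (adjusted p = 0.0301). The calls at 10, 40 and 120 ppm were lost in 7, 6 and 6 of 10 fits with 1 mouse left out. At 10 ppm these left out air mouse 1, 2 or 5 or 10 ppm mouse 1, 3, 4 or 5 (0.73 to 0.77), at 40 ppm air mouse 1, 2 or 5 or 40 ppm mouse 3, 4 or 5 (0.56 to 0.76), and at 120 ppm air mouse 1, 2 or 5 or 120 ppm mouse 2, 3 or 5 (0.59 to 0.76).

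Prf1 had 4.49, 5.28, 4.45, 4.89 and 4.35 log2 in air, 3.47, 4.07, 3.64, 3.55 and 3.54 at 5 ppm and 3.44, 3.92, 4.22, 3.25 and 4.31 at 120 ppm. It ran 3.96 to 4.97 at 1 ppm, 3.91 to 4.30 at 10 ppm, 3.26 to 4.65 at 20 ppm and 3.13 to 4.39 at 40 ppm. Mice at 5, 10 and 120 ppm all lay below those in air. The log2 change was -1.04 ± 0.24 at 5 ppm (limma adjusted p = 0.000306), -0.54 ± 0.24 at 10 ppm (adjusted p = 0.0510) and -0.86 ± 0.24 at 120 ppm (adjusted p = 0.00239). Without air mouse 1, 3 or 5 the 10 ppm change was called (-0.63 to -0.59), and without air mouse 2 or 20 ppm mouse 4 the 20 ppm call was lost (-0.56 to -0.53). The second Prf1 probe set disagreed, and it was nearly as bright (mean over 35 arrays 4.03 log2, against 4.10). It was 0.24 ± 0.11 log2 higher at 5 ppm than in air (limma adjusted p = 0.0517 over all probe sets) and -0.02 ± 0.11 at 120 ppm (adjusted p = 0.884). No concentration was called against air by this probe set. It was called higher at 5 ppm than at 10 to 40 ppm (0.26 ± 0.09, adjusted p = 0.0212). With the probe sets of Prf1 averaged, the change was -0.40 at 5 ppm (limma adjusted p = 0.00864) and -0.44 at 120 ppm (adjusted p = 0.00498).

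The co-receptors had the smallest changes of the 9 genes at 120 ppm. Cd4, the helper cell co-receptor (chr6:124864693-124888247), averaged 4.60 ± 0.09 log2 at 120 ppm and 4.42 ± 0.21 in air (SD, n = 5 each), and its group means ran 4.32 to 4.60 over the 7 groups. Its change at 120 ppm was 0.17 ± 0.10 (limma adjusted p = 0.13), called without air mouse 1 (0.24, adjusted p = 0.0360). Its second probe set was called lower at 5 ppm alone (-0.30 ± 0.10, adjusted p = 0.0110). Cd8a, the cytotoxic co-receptor (chr6:71373427-71379171), averaged 4.24 ± 0.67 log2 at 120 ppm and 3.78 ± 0.15 in air, with 3.54, 4.17, 5.34, 3.999 and 4.13 in the 5 mice at 120 ppm and 3.77, 3.57, 3.82, 3.996 and 3.75 in air. Its call at 120 ppm (0.45 ± 0.19, adjusted p = 0.0375) rested on mouse 3: without that mouse the change was 0.18 (adjusted p = 0.280). It was also lost without air mouse 1, 2, 3 or 5 (changes up to 0.46), and its other 2 probe sets were called nowhere. Of all probe sets 49.8% were dimmer than that of Cd4, 38.3% than that of Cd8a, 43.7% than that of Prf1 and 57.2% than that of Ncr1. These 4 members lay below the median gene of the array (5.74 log2).

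**Figure D2:**
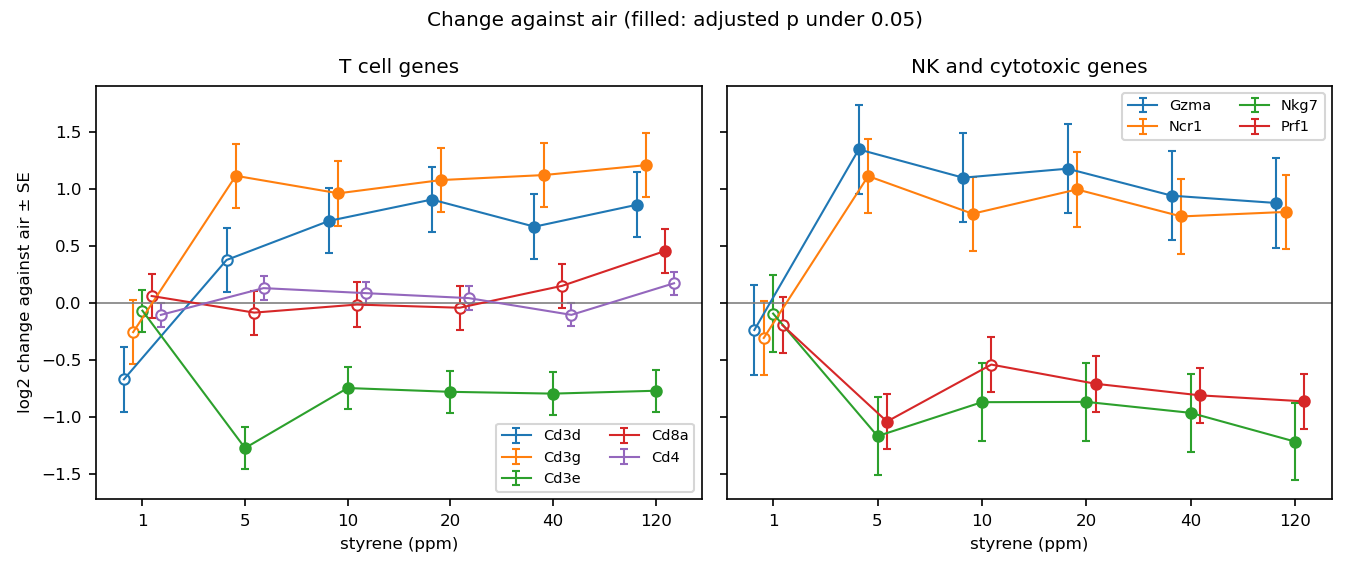
Log2 change relative to air of each measured gene at the 6 styrene concentrations, placed at even steps, with the standard error from limma. Cd3g, Gzma and Ncr1 lie above 0 from 5 ppm upwards, Cd3e, Nkg7 and Prf1 lie below 0, and Cd3g lies at 1.11 at 5 ppm and 1.21 at 120 ppm.

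No member was called between 120 ppm and the 3 concentrations below it. Comparing 120 ppm with the mean of 10, 20 and 40 ppm, limma called 0 of 9 members and 0.0936% of all genes. The difference takes no air array, but the limma spread is pooled over all 7 groups. With limma 1 of the 9, Cd8a, had an unadjusted p under 0.05 (0.42 ± 0.16 log2), against 10.7% of all genes. With the exact permutation test 2 did, and the share of all genes was not computed for that test. The trend over log2(ppm + 1) with limma was called for 7 of 9 members, 4 upward and 3 downward, against 72.6% of all genes, 30.9% upward and 41.8% downward, and the F test among the 7 groups for 7 of 9, against 82.4%. Cd8a and Cd4 were the members not called in either.

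Groups of 5 mice allow 252 arrangements and a smallest exact p of 0.00794. At 5 ppm the exact two-sided permutation test gave p = 0.00794 for Cd3e, Cd3g, Gzma, Prf1 and Nkg7 and 0.0238 for Ncr1. At 120 ppm it gave p = 0.00794 for Prf1 and 0.0159 for Cd3e, Cd3g and Nkg7, and it missed 0.05 for Cd3d (exact p = 0.0635), Cd8a (exact p = 0.143), Gzma (exact p = 0.103) and Ncr1 (exact p = 0.111). At 40 ppm it also missed 0.05 for Gzma (exact p = 0.119) and Ncr1 (exact p = 0.0873), and at 10 ppm it gave p = 0.00794 for Prf1, which limma did not call.

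With the array's interquartile range as a covariate, 1 member was called at 5 ppm, Cd3e, which was -1.27 without and -1.23 with it, and 0 at 10, 20, 40 and 120 ppm, against 34.1%, 28.8%, 28.2%, 28.3% and 29.5% of all genes. With the largest axis of the spread between mice of a group as a covariate, 0, 0, 1, 0 and 0 were called at 5, 10, 20, 40 and 120 ppm, the 1 being Cd3d at 20 ppm (1.22 log2), against 16.2%, 23.9%, 30.4%, 30.2% and 24.3% of all genes. Air arrays and the arrays of 5 to 120 ppm shared no range of either measure, so these fits extrapolate. With 1 ppm in place of air as control, 8 of 9 members were called at 5 ppm and 6, 6, 7 and 8 at 10, 20, 40 and 120 ppm, against 79.6%, 70.8%, 68%, 69.9% and 72.6% of all genes.

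Genes that split in direction relative to air still varied together between mice of a group. Over all 35 arrays, deviations from the group mean had a median Pearson correlation of 0.592 over the 36 pairs of members, from -0.354 to 0.912, and every pair below 0 involved Cd4. Gzma and Nkg7, which moved in opposite directions, had the highest, at 0.912 (Spearman 0.919), with 0.755 over the 10 air and 1 ppm arrays and 0.941 over the 25 others. It was 0.883 without the 2 arrays farthest from the median. Nkg7 and Ncr1 had 0.911 and Gzma and Ncr1 0.903. Among the CD3 genes, Cd3d and Cd3g had 0.860, Cd3e and Cd3g 0.714 and Cd3d and Cd3e 0.711. Each point is 1 array, so genes on it share the RNA, its quality and the array, and no test is given. Deviations of the members had correlations of -0.293 (Cd4) to 0.281 (Cd3g) with those of the interquartile range over the same arrays. Cd3d had 0.273, Gzma 0.041 and Nkg7 -0.0459.

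The difference between 2 genes on the same array removes what raises both, and the 4 opposed pairs below were chosen after their values were seen. Gzma minus Nkg7, centred on its mean in air, was 1.60 to 2.99 in the 25 arrays of 5 to 120 ppm and -0.51 to 0.41 in the 10 arrays of air and 1 ppm. Ncr1 minus Nkg7 was 1.44 to 2.40 in the first set and -0.74 to 0.38 in the second. Cd3d minus Cd3e was 1.04 to 2.29 against -1.21 to 0.41, and Cd3g minus Cd3e was 1.46 to 2.91 against -0.64 to 0.69. None of these 4 differences overlapped between the 2 sets, but pairs chosen for opposite changes tend to separate. The share of all gene pairs that separate in this way was not computed, so nothing is concluded from it. The 2 pairs that moved the same way did overlap: Gzma minus Ncr1 was -0.33 to 0.69 against -0.72 to 0.56, and Cd3d minus Cd3g was -0.96 to 0.08 against -0.98 to 0.32. A difference of this kind shows unequal change of 2 probe sets and not which of them changed.

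**Figure D3:**
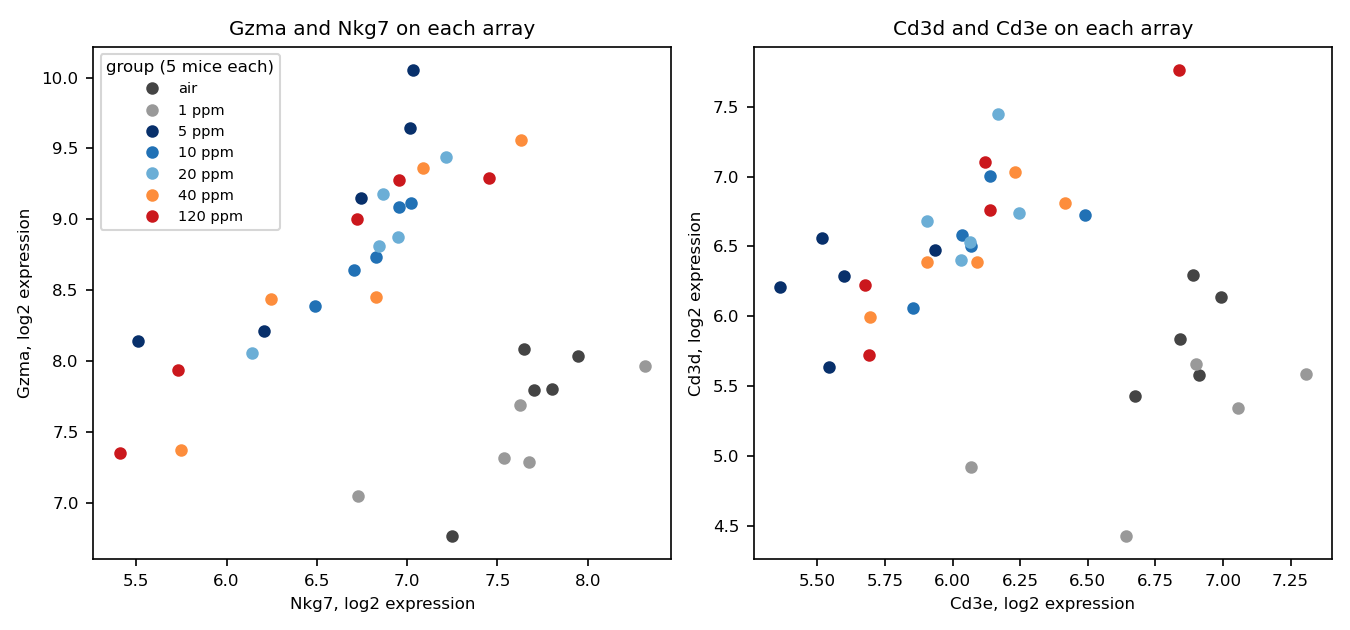
Log2 signal of Gzma against Nkg7 and of Cd3d against Cd3e on each of the 35 arrays, coloured by group from air to 120 ppm. Gzma minus Nkg7, centred on its air mean, was 1.60 to 2.99 from 5 to 120 ppm. It was -0.51 to 0.41 in air and 1 ppm.

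Single mice stood out across the list. At 120 ppm mouse 3 was the highest of its group in 8 of 9 members, against 25.4% of all genes, and Prf1 was the exception. It was also the highest in 12 of 18 T cell receptor genes, 8 of 9 pan-leukocyte genes and 4 of 8 B cell markers, and in 0 of 8 alveolar macrophage, 0 of 9 neutrophil and 0 of 9 epithelial markers. At 1 ppm mouse 4 was the highest in 7 of 9 members (16.3% of all genes) and mouse 1 the lowest in 7 (23.2%). The lowest was mouse 1 in 6 of 9 at 5 ppm (21.4% of all genes), mouse 2 in 7 at 10 ppm (26.6%) and mouse 1 in 7 at 40 ppm (24.3%). In each of the other groups no mouse was the highest or the lowest in more than 5 members. Their part in the results was not tested beyond the fits without them.

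Other genes of the same cells also moved in both directions. Of 19 listed genes of the T cell receptor complex and its signalling, 18 were measured, and at 120 ppm 4 were higher, 8 lower and 6 not called, with a median of -0.19 log2 beside -0.15 over all genes. Of all genes 29.8% were higher and 39.1% lower at 120 ppm, and 29.6% and 47.4% at 5 ppm, and the counts of this list and of those that follow are to be read against these shares. Zap70, the kinase bound to the phosphorylated CD3 chains, was -1.47 ± 0.22 (limma adjusted p = 3.65e-07), and Cd247, the zeta chain of the same receptor, -1.07 ± 0.21 (adjusted p = 3.31e-05). Lcp2, the adaptor SLP-76, was 1.14 ± 0.16 (adjusted p = 1.35e-07) and Prkcq, protein kinase C theta, 1.07 ± 0.15 (adjusted p = 2.09e-07). At 5 ppm the counts were 4 higher, 9 lower and 5 not called.

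Of 16 genes of T cell identity and subsets 12 were measured, and at 120 ppm 2 were higher, 3 lower and 7 not called. Foxp3, the factor of regulatory T cells, fell by 0.71 ± 0.14 log2 relative to air (limma adjusted p = 3.25e-05) and Cxcr6, a chemokine receptor of tissue T cells, rose by 0.66 ± 0.16 (adjusted p = 0.000568). Cd8b1, the partner chain of Cd8a, changed by 0.34 ± 0.25 (adjusted p = 0.229). Of 20 NK and cytotoxic genes 19 were measured, and at 120 ppm 0 were higher, 8 lower and 11 not called with limma, whereas at 5 ppm 5 were higher, 8 lower and 6 not called. Tbx21, the factor T-bet of type 1 and killer cells, fell by 1.51 ± 0.22 (adjusted p = 4.04e-07), and Klrb1c, the receptor NK1.1, changed by 0.20 ± 0.20 (adjusted p = 0.369).

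**Figure D4:**
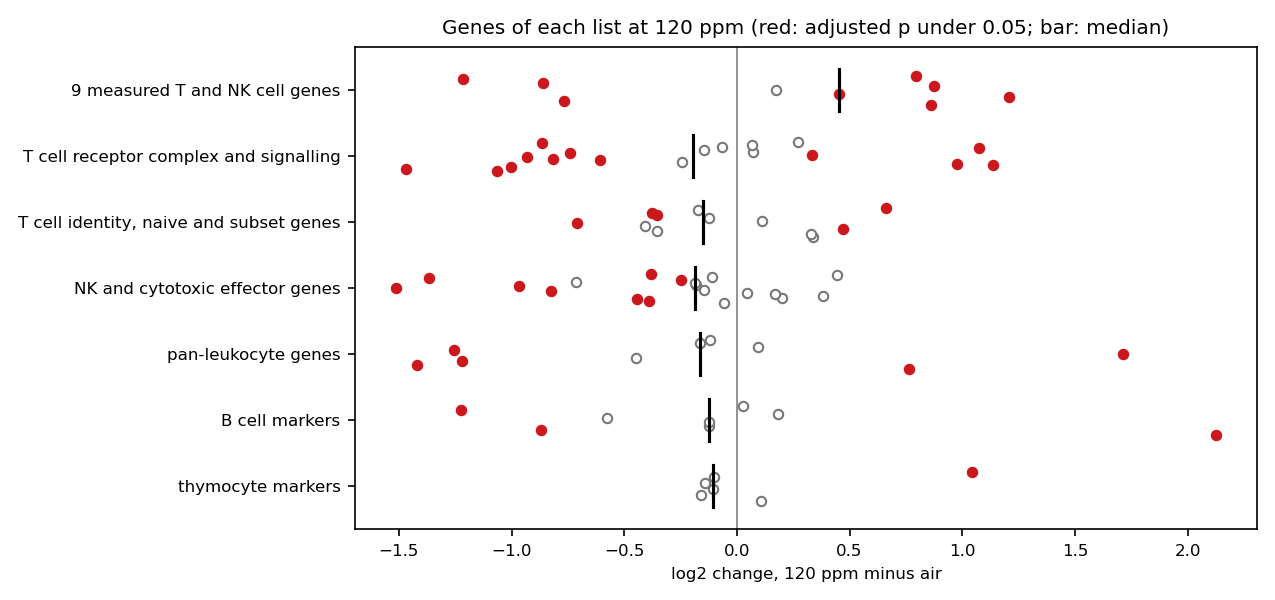
Log2 change of the genes in each list at 120 ppm relative to air, with the listed T and NK cell genes beside lists of other cell types; each point is a gene. Genes of a list lie on both sides of 0 in the T cell receptor, NK and pan-leukocyte lists. In the T cell receptor list Lcp2 is at 1.14 and Zap70 at -1.47. In the NK list 0 genes were called higher and 8 lower.

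The genes whose deviations between mice were most like the mean of Cd3d, Cd3e and Cd3g over the 35 arrays were Rac2, a GTPase of blood cells (Pearson 0.796), Ptprcap, a partner of CD45 (0.785), Cd5, a T cell surface receptor (0.778), the adaptor Lat (0.777) and Cd247 (0.773). At 120 ppm Ptprcap was -1.50 ± 0.30, Cd5 -0.81 ± 0.30 and Lat -1.002 ± 0.23 log2 relative to air, each called lower, while Rac2 was -0.12 ± 0.22 (limma adjusted p = 0.641) and not called. Those most like the mean of Gzma, Prf1, Nkg7 and Ncr1 were Ccl5, a chemokine of activated T and NK cells (0.902), Klrd1, the receptor CD94 (0.861), Il2rb, a chain of the interleukin receptors (0.843), the protease Ctsw (0.822) and Rac2 (0.691). At 120 ppm Il2rb was -0.97 ± 0.23 and Ctsw -1.36 ± 0.28, both called lower, while Ccl5 (-0.71 ± 0.38, limma adjusted p = 0.0979) and Klrd1 (0.17 ± 0.23, adjusted p = 0.519) were not called. At 5 ppm Klrd1 was called higher (0.68 ± 0.23, limma adjusted p = 0.00874) and Rac2 lower (-0.50 ± 0.22, adjusted p = 0.0426). There Ptprcap, Cd5, Lat, Cd247, Il2rb and Ctsw were also called lower, and Ccl5 was not called (-0.81 ± 0.38, adjusted p = 0.0542).

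Markers of other cells moved as well. Of 9 pan-leukocyte genes 2 were higher and 3 lower at 120 ppm, with Cd53 at 1.72 ± 0.17 and Ptprc, the leukocyte protein CD45, at 0.76 ± 0.26, and Coro1a at -1.42 ± 0.23 and Laptm5 at -1.22 ± 0.16. The mean of these 9 genes ran 8.31 to 9.35 log2 in mice at 120 ppm and 8.93 to 9.35 in air. Of 8 B cell markers 1 was higher (Ms4a1, 2.13 ± 0.60) and 2 lower (Spib, -1.22 ± 0.33, and Cd79a, -0.87 ± 0.35), with a list mean of 4.93 to 5.97 at 120 ppm and 5.32 to 5.85 in air. Of 7 platelet markers 0 were higher and 6 lower, with a list mean of 5.47 to 6.39 at 120 ppm and 6.88 to 7.54 in air. Of 8 alveolar macrophage markers 5 were higher and 1 lower, with a list mean of 9.45 to 9.90 at 120 ppm and 8.20 to 9.11 in air. Of 6 thymocyte markers, which would mark thymus in the sample, 1 was higher, Tcf12, which is broadly expressed, while Rag1 changed by 0.10 ± 0.13 (limma adjusted p = 0.469). Of 9 lung epithelial markers 4 were higher and 2 lower. Of 9 neutrophil markers 1 was higher and 3 lower, with list means of 5.97 to 7.56 at 120 ppm and 6.66 to 7.18 in air. The part of these cells in the T and NK cell results was not tested.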

How the data were processed

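The authors deposited 1 column of log2 signals per mouse, with 1 value for each probe set, made with RMA per the submitters' processing notes, which also name Partek without a role or version. RMA subtracts background, brings arrays to a common scale and reduces the probes of a set to 1 value. The interquartile range still differed between arrays. The RNA was total RNA amplified from the 3' end, per the labels' protocols, so a probe set reports the part of a transcript it lies in. Arrays have no read depth, and their number limits the precision.

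Symbols came from the platform annotation: 28898 of 45037 probe sets had exactly 1 symbol, 551 several and 15588 none. Of the 28898, 28689 matched the RefSeq gene table by Entrez identifier. The brightest probe set by mean over 35 arrays stood for each of 17097 genes, with no filter on dim genes. Group means were fitted with limma 3.58.1 in R 4.3.3 (lmFit, eBayes) on all 7 groups, with Benjamini-Hochberg adjustment over all genes and a threshold of 0.05. Tests are two-sided, and errors are SE from the fit unless given as SD. The limma p-values rest on 1 spread per gene, pooled over the mice within all 7 groups and moderated across genes. The script was tested on simulated data. Alternatives covered probe set choice, normalization, dim genes, groups fitted, array weights, a block for the mouse number, the variance prior, array-wide covariates, 1 ppm as control and each mouse left out.

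The T and NK cell genes, the gene lists and the comparisons were chosen with earlier results of these data known. All measured members are named. Of each list, up to 3 genes called at 120 ppm with the smallest adjusted p could be named, and Ptprc, Cd247, Klrb1c, Cd8b1, Cd79a, Rag1, Sftpc and Scgb1a1 whatever they did, as were the 5 genes most like the CD3 genes and the 5 most like the killer genes. The labels do not say that mouse numbers pair mice across groups, and they were not treated as pairs.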

Additional observations from a re-analysis of the deposited data

Results flagged for a closer look

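A mouse far from the other 4 of its group was found in 4 of 91 groups tested, 1 group for each of the 13 probe sets at each of the 7 concentrations, where chance gives about 1 in 20. Gzma in air mouse 1, at 6.77 log2, lay below the other air mice at 7.79 to 8.09. Ncr1 in 10 ppm mouse 2, at 4.92, lay below the others at 5.24 to 5.37. Cd4 in 10 ppm mouse 2, at 4.77, lay above the others at 4.39 to 4.48. The second Cd4 probe set in 10 ppm mouse 5, at 3.25, lay below the others at 3.44 to 3.48.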

How the results depend on the processing

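No called change turned its sign under any alternative run with the brightest or the averaged probe sets, whereas the second Prf1 probe set had the opposite sign at 5 ppm (0.24, against -1.04 by the brightest). Apart from the setting without dim genes, the cause of the shifts below was not tested. With quantile normalization 4 members were called at 40 ppm (26.1% of all genes higher and 32.6% lower) and 5 at 120 ppm (28.1% and 34.6%). With dim genes left out, 5 of the 9 members stayed in the test and all 5 were called at 120 ppm. That lower count reflects members that left the test, not calls lost. With array weights 5 of 9 were called at 120 ppm. Shares of all genes are not given here for these last settings, the fits without 1 mouse or the replicate block. With the quartile range as a covariate 1 member was called at 5 ppm and 0 at 10, 20, 40 and 120 ppm. By the F test 0 were called, against 46.1% of all genes, and in the trend 0, against 6.94%. With the largest within-group axis of the arrays as a covariate, 0 members were called at 5, 10, 40 and 120 ppm and 1 at 20 ppm. At 5 against 10 to 40 ppm 0 were called (4.97% of all genes), by the F test 1 (37.8%) and in the trend 3 (28.3%). Leaving out 1 mouse gave 4 to 7 members at 40 ppm, with 4 without air mouse 1 or 40 ppm mouse 3, and 4 to 8 at 120 ppm, with 5 without air mouse 2 and 4 without 120 ppm mouse 3. With the mouse number as a replicate block 6, 7, 7, 7 and 8 members were called at 5, 10, 20, 40 and 120 ppm, the added one being Prf1 at 10 ppm. Over 105 pairs of same-numbered mice of different groups, deviations from the group mean had correlations of -0.378 to 0.441 (median 0.0648), with 46 over 0.1, and the median over 420 pairs of different numbers was -0.0077. Of 35 arrays, 16 correlated best with an array of their own number, where equal shares would give 7, which is a hint from the data and not from the design.

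The changes that turned sign were all uncalled. With all probe sets of each gene averaged, Cd4 was 0.052 at 1 ppm, -0.085 at 5 ppm, -0.050 at 10 ppm, -0.058 at 20 ppm and -0.0045 at 5 against 10 to 40 ppm, and Cd8a -0.043 at 40 ppm. With quantile normalization Cd3e was 0.070 at 1 ppm and -0.0077 at 120 against 10 to 40 ppm, Cd8a 0.036, 0.080 and 0.044 at 5, 10 and 20 ppm, and Cd4 -0.020 at 20 ppm. With median centring Cd4 was -0.015 at 20 ppm and Cd3e -0.0023 at 120 against 10 to 40 ppm. With array weights Cd8a was 0.0063 at 20 ppm and Cd3g -0.0040 at 5 against 10 to 40 ppm. With the quartile range Cd3g was 0.099 at 1 ppm and -0.099 at 5 against 10 to 40 ppm, Cd8a -0.011, 0.080, 0.12 and 0.086 at 1, 5, 10 and 20 ppm, Cd3d -0.42 at 5 ppm and Cd4 0.12 at 40 ppm. With that axis Cd8a was 0.32, 0.26 and 0.19 at 5, 10 and 20 ppm and 0.038 at 5 against 10 to 40 ppm, Nkg7 0.061 at the last, and Ncr1 0.017 at 120 against 10 to 40 ppm. With 1 ppm as control Cd4 was 0.00017 at 40 ppm. The ranges with 1 mouse left out, for changes that turned sign, were as follows. At 120 ppm against 10 to 40 ppm, Cd3d -0.17 to 0.34, Cd3e -0.18 to 0.11, Cd3g -0.12 to 0.34, Gzma -0.38 to 0.11 and Ncr1 -0.25 to 0.23. At 1 ppm against air, Cd3e -0.20 to 0.11, Cd8a -0.0027 to 0.12 and Nkg7 -0.28 to 0.12. At 5 ppm against 10 to 40 ppm, Cd3g -0.052 to 0.15. At 20 ppm against air, Cd4 -0.025 to 0.11 and Cd8a -0.12 to 0.027. At 10 ppm against air, Cd8a -0.068 to 0.039. At 5 ppm against air, Cd8a -0.17 to 0.0076.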
